A study of Rattus norvegicus with 15 samples.

Results

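The genes described here encode proteins of the photoreceptor ribbon synapse, the contact through which rods and cones pass their signal to bipolar and horizontal cells. They are *Cacna1f*, *Cacna2d4*, *Cabp4*, *Bsn*, *Pclo*, *Ctbp2*, *Slc17a7*, *Egflam* and *Elfn1*. They were chosen by symbol for their known place at this synapse and not by a threshold on their values. Earlier results of these data were known when they were chosen. They make up 9 of the 20375 genes listed in the files. RNA was sequenced from whole retinas of wild-type Sprague-Dawley rats, and 15 libraries fell into 5 groups of 3. Healthy rats formed the NT (no treatment) group. The Sham, MSC, MSC-EPO and DPSC groups received 40 mg/kg of systemic sodium iodate (NaIO3), an oxidant that injures the retinal pigment epithelium and then the photoreceptors. Before NaIO3 the eyes received an intravitreal injection, which was the vehicle alone for Sham, mesenchymal stem cells from human Wharton's jelly for MSC, such cells carrying a lentiviral human erythropoietin gene for MSC-EPO, and cells labelled only DPSC for the DPSC group. The labels give a density of 100000 cells per μl, the study's methods give another, and the dose of cells is therefore not certain. The labels place collection on day 31, at an age of 12 weeks, while the series text gives an age in days that differs from this. Rats that received cells also received dexamethasone at 2 mg/kg and then cyclosporin at 10 mg/kg/day, so an effect of the cells and of these drugs cannot be told apart against the NT or the Sham group.

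A photoreceptor releases glutamate steadily in the dark and slows its release in light. At the ribbon, a plate built largely of RIBEYE, a protein made from the *Ctbp2* gene, vesicles are held next to L-type calcium channels that stay open for as long as the cell is depolarized. Bassoon anchors the ribbon to the membrane, the vesicular transporter VGLUT1 fills the vesicles, and proteins that span the cleft align the release site with the mGluR6 receptors of ON bipolar cells. Human mutations in several of the channel genes cause congenital stationary night blindness or cone-rod synaptic disorders, in which photoreceptors survive but transmit poorly. *Bsn*, *Pclo*, *Ctbp2* and *Slc17a7* are also used by other retinal neurons, so in whole retina their level is not that of photoreceptors alone.

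The deposited values are regularized logs (rlog), log2 expression levels that the authors corrected for library size. The transformation pulls each value toward the mean of its gene, so differences computed from them may understate the changes. How far it did so for these genes was not measured. They are not scaled by transcript length, and levels were therefore compared between groups and never between genes. A gene was tested if its mean rlog value reached 3.32, the log2 of 10, which held for 15424 genes and for all 9 of the genes described. Differences are log2 fold changes with their standard errors (SE) from limma, which was fitted to all 15 libraries, and a gene was called when its Benjamini-Hochberg adjusted p was under 0.05. In whole tissue, fewer cells of a type and less RNA per cell cannot be told apart. The labels do not say whether the 3 libraries of a group came from separate animals, so the p-values measure the spread between libraries.

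The retinal identity of the samples was checked with marker genes. *Gnat1*, the rod transducin alpha subunit, had a mean rlog value of 17.93 ± 0.10 (SD, n = 3) in the NT group, 16.76 ± 0.27 in Sham, 15.62 ± 0.08 in MSC, 15.39 ± 0.80 in MSC-EPO and 16.27 ± 0.92 in DPSC. *Gfap*, a marker of reactive glia, moved the other way, from 9.72 ± 0.33 in NT to between 13.09 and 13.80 in the group means after NaIO3. Median rlog values of the libraries lay between 8.63 and 8.82, and no pair of libraries held identical values. Replicate 3 of the MSC-EPO group stood apart from the rest: it was the lowest of 15 libraries for 3870 of the tested genes (25.1%), followed by MSC replicate 1 with 14.6% and NT replicate 3 with 13.8%.

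The mean level of each of the 9 genes was highest in the NT group. Against NT, 4 of the 9 genes fell in the MSC group (*Slc17a7*, *Cabp4*, *Cacna2d4* and *Cacna1f*), 4 fell in the MSC-EPO group (*Slc17a7*, *Cabp4*, *Cacna2d4* and *Ctbp2*) and 1, *Slc17a7*, fell in the DPSC group. Of all tested genes, 6.37% were called lower than NT in MSC, 5.81% in MSC-EPO and 1.41% in DPSC. No member was called in the Sham group, in any group with cells against Sham, or between the groups with cells. *Slc17a7* and *Cabp4* were called in both MSC comparisons with NT under each of 15 alternative analyses, all by the adjusted p alone. The 4 comparisons with NT share the same NT libraries and are not independent of each other. The plot of the values by library shows all 9 genes.

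**Figure D1:**
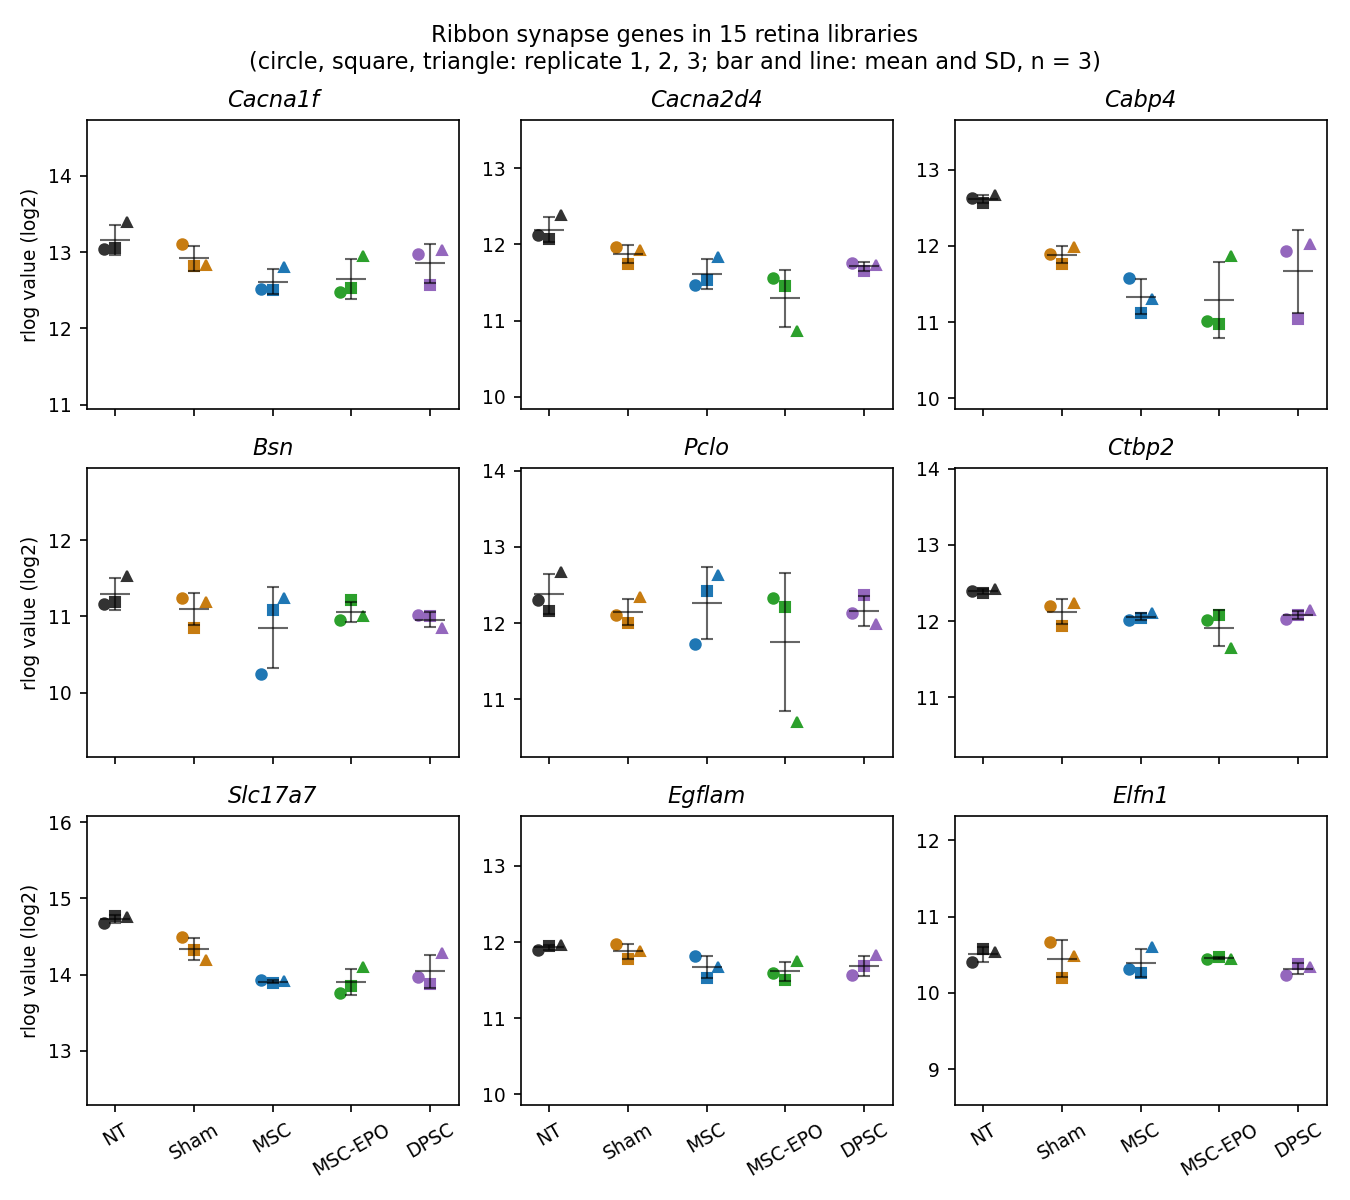
Rlog value (log2, vertical axis) of each of the 9 genes in the 15 libraries, by group on the horizontal axis, with every panel spanning the same number of log2 units. The NT libraries lie above all the MSC and MSC-EPO libraries for *Slc17a7*, *Cabp4*, *Cacna1f*, *Cacna2d4*, *Ctbp2* and *Egflam*. The share of all tested genes separated in this way was not computed for MSC and MSC-EPO against NT. These separations therefore cannot be read as a property of the 9 genes. The triangle of MSC-EPO replicate 3 lies far below its group for *Pclo*.

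The vesicle transporter and the channel regulator carried the steadiest differences. *Slc17a7* (ENSRNOG00000020650) encodes VGLUT1, which loads glutamate into synaptic vesicles. Its rlog values were 14.67, 14.77 and 14.76 in NT, 14.49, 14.32 and 14.19 in Sham, 13.92, 13.89 and 13.91 in MSC, 13.76, 13.85 and 14.09 in MSC-EPO and 13.96, 13.88 and 14.29 in DPSC. Every library given NaIO3 lay below every NT library, and the MSC and MSC-EPO libraries also lay below every Sham library. The log2 fold change against NT was -0.40 in Sham (SE 0.13, limma adjusted p 0.194), -0.83 in MSC (adjusted p 0.00177), -0.83 in MSC-EPO (adjusted p 0.00161) and -0.69 in DPSC (adjusted p 0.0143). On the rlog scale, 56.4% of the NT level remained in MSC, 56.2% in MSC-EPO and 61.9% in DPSC. The DPSC call for *Slc17a7* depended on single libraries: with NT replicate 1, 2 or 3 or DPSC replicate 1 or 2 left out, the adjusted p was 0.0511, 0.0654, 0.0701, 0.0534 and 0.0650 in turn, and no member was then called in DPSC.

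*Cabp4* (ENSRNOG00000022044) encodes a calcium-binding protein that sits on the channel and shifts its opening toward the voltages at which photoreceptors work. Its rlog values were 12.62, 12.56 and 12.66 in NT, 11.89, 11.76 and 11.99 in Sham, 11.58, 11.12 and 11.30 in MSC, 11.02, 10.98 and 11.86 in MSC-EPO and 11.93, 11.04 and 12.03 in DPSC. NT was again above every other library, while MSC-EPO replicate 3 and DPSC replicate 1 lay among the Sham values and DPSC replicate 3 just above them. *Cabp4* had the largest log2 fold change of the 9 genes in each comparison with NT: -0.73 in Sham (SE 0.26, limma adjusted p 0.251), -1.28 in MSC (adjusted p 0.00641), -1.33 in MSC-EPO (adjusted p 0.00677) and -0.95 in DPSC (adjusted p 0.0751). It was the only member to pass both the adjusted p and a 2-fold change, with 41.1% of the NT level remaining in MSC and 39.8% in MSC-EPO. The share of all tested genes that fell by that stricter rule was 0.985% in MSC and 1.24% in MSC-EPO. The Sham value of *Cabp4* was called when the Sham and NT groups were fitted alone (limma SE 0.08, adjusted p 0.00442). That fit called 546 of 15382 tested genes lower, next to 51 of 15424 in the fit of all 15 libraries.

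The promoters of these genes are shown because *Slc17a7* and *Cabp4* fell in both MSC and MSC-EPO, and that of *Ctbp2* because it was the other member whose promoter held a photoreceptor motif. A promoter was found for 8 of the 9 members, and not for *Cacna2d4*, which also fell in both groups. The sequences are from RefSeq on the rat GRCr8 assembly, which is not the build of the expression files. They cover 250 bases before and 50 bases after the annotated start of each gene. They were searched for TAATCC, the core recognized by the photoreceptor factors CRX and OTX2, and for TGCTGA, a core of the element bound by the rod factor NRL, on both strands (GGATTA and TCAGCA in reverse). These motifs do not overlap each other in the windows searched. Capitals mark the motif matches, and a sequence without capitals held none.
Cabp4, chr1:210862583-210862882, minus strand: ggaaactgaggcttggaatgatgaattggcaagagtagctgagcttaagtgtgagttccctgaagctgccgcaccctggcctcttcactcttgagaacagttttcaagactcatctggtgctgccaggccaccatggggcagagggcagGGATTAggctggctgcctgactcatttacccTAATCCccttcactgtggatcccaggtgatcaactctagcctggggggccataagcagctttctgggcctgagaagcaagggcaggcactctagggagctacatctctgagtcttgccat
Ctbp2, chr1:197241854-197242153, minus strand: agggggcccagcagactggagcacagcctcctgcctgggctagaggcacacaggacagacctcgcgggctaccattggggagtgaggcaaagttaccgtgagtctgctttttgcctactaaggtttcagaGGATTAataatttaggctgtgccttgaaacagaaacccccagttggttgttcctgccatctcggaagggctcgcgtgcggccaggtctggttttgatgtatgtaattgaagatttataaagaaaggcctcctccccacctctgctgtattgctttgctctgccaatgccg
Slc17a7, chr1:104785955-104786254, plus strand: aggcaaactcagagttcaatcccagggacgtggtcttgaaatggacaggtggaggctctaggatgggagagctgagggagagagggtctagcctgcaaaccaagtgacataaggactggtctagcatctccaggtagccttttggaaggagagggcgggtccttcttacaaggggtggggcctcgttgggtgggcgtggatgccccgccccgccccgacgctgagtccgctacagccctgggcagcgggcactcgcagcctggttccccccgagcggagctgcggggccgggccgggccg
The *Cabp4* window held the CRX and OTX2 core at 2 positions, with first bases at -101 on the reverse strand and -70 on the forward strand counted from the start, and the *Ctbp2* window held it at -120 on the reverse strand. The core was thus present in 2 of the 8 promoters found, against 7.11% of the 27457 promoters in the table. The NRL core was in 0 of the 8, against 18.6% of all promoters. A match describes the letters of this window and not a bound site. RefSeq places the starts used for *Cabp4* and *Ctbp2* inside the span of the gene, so other transcripts of these genes begin elsewhere.

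The channel itself is formed by the products of *Cacna1f* (ENSRNOG00000010348), which encodes the pore of the Cav1.4 calcium channel, and *Cacna2d4* (ENSRNOG00000008031), which encodes its extracellular alpha2delta4 subunit. *Cacna2d4* had rlog values of 12.13, 12.07 and 12.38 in NT, 11.96, 11.74 and 11.93 in Sham, 11.47, 11.54 and 11.83 in MSC, 11.56, 11.45 and 10.86 in MSC-EPO and 11.76, 11.65 and 11.74 in DPSC. No library after NaIO3 reached an NT value, and the lowest of all 15 was MSC-EPO replicate 3. Against NT its log2 fold change was -0.31 in Sham (SE 0.16, limma adjusted p 0.481), -0.58 in MSC (adjusted p 0.0289), -0.90 in MSC-EPO (adjusted p 0.00438) and -0.48 in DPSC (adjusted p 0.149). *Cacna1f* had rlog values of 13.04, 13.05 and 13.39 in NT, 13.11, 12.82 and 12.83 in Sham, 12.52, 12.51 and 12.80 in MSC, 12.47, 12.52 and 12.96 in MSC-EPO and 12.97, 12.56 and 13.03 in DPSC. Sham overlapped NT for this gene, while MSC, MSC-EPO and DPSC did not. Its log2 fold change was -0.24 in Sham (SE 0.17, limma adjusted p 0.654), -0.55 in MSC (adjusted p 0.0406), -0.51 in MSC-EPO (adjusted p 0.0694) and -0.30 in DPSC (adjusted p 0.394).

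The MSC calls of both channel subunits were near the threshold. With NT replicate 1, 2 or 3 or MSC replicate 1 or 2 left out, the limma adjusted p of *Cacna2d4* in MSC against NT lay between 0.0524 and 0.116, and that of *Cacna1f* between 0.0676 and 0.159, and each of these fits left 2 members called, *Cabp4* and *Slc17a7*. The MSC-EPO difference of *Cacna1f* passed when MSC-EPO replicate 3 was left out (log2 fold change -0.66, limma adjusted p 0.0165).

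Of the ribbon and active zone genes, *Ctbp2* (ENSRNOG00000017326) alone was called. It had rlog values of 12.39, 12.36 and 12.43 in NT, 12.20, 11.94 and 12.24 in Sham, 12.02, 12.04 and 12.10 in MSC, 12.01, 12.07 and 11.64 in MSC-EPO and 12.03, 12.07 and 12.14 in DPSC. The NT values were close together and above all others. Its log2 fold change against NT was -0.27 in Sham (SE 0.11, limma adjusted p 0.346), -0.34 in MSC (adjusted p 0.0572), -0.49 in MSC-EPO (adjusted p 0.0156) and -0.31 in DPSC (adjusted p 0.172). The MSC-EPO call was lost without NT replicate 1 (adjusted p 0.0516) or NT replicate 3 (adjusted p 0.0636). The files sum reads to genes, so RIBEYE and the transcriptional co-repressor CtBP2, which the same gene encodes, cannot be told apart.

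*Bsn* (ENSRNOG00000030714) and *Pclo* (ENSRNOG00000005726) encode bassoon and piccolo, very large scaffold proteins of the presynaptic cytomatrix, and neither was called in any comparison. *Bsn* had a mean rlog value of 11.29 ± 0.21 in NT (SD, n = 3), 11.10 ± 0.21 in Sham, 10.85 ± 0.53 in MSC, 11.06 ± 0.14 in MSC-EPO and 10.96 ± 0.10 in DPSC. The wide spread in MSC came from replicate 1 at 10.24, the lowest of 15, next to 11.08 and 11.24. *Pclo* had rlog values of 12.30, 12.16 and 12.67 in NT, 12.10, 12.00 and 12.34 in Sham, 11.73, 12.42 and 12.63 in MSC, 12.33, 12.21 and 10.71 in MSC-EPO and 12.13, 12.37 and 11.98 in DPSC. Its groups overlapped throughout, and its SE of 0.36 was the largest of the 9 genes.

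Neither trans-synaptic gene was called in any comparison. *Egflam* (ENSRNOG00000012058) encodes pikachurin, a protein of the cleft that binds dystroglycan, and *Elfn1* (ENSRNOG00000022767) encodes a membrane protein of photoreceptors that recruits mGluR6 across the synapse. *Egflam* had a mean rlog value of 11.93 ± 0.03 in NT (SD, n = 3), 11.88 ± 0.10 in Sham, 11.67 ± 0.14 in MSC, 11.61 ± 0.12 in MSC-EPO and 11.69 ± 0.13 in DPSC (limma adjusted p 0.925, 0.0887, 0.0576 and 0.232 against NT). The NT values lay above those of all 3 groups with cells and overlapped Sham. It was called in MSC-EPO when replicate 3 of that group was left out (adjusted p 0.0211). *Elfn1* had the narrowest range of group means, 10.51 in NT, 10.45 in Sham, 10.39 in MSC, 10.45 in MSC-EPO and 10.32 in DPSC, which span 0.19 next to a pooled SD of 0.15. The sign of 5 uncalled differences from NT depended on the analysis. Over the alternatives, *Elfn1* reached 0.09 in Sham, 0.09 in MSC and 0.01 in MSC-EPO, *Egflam* reached 0.02 in Sham, and *Pclo* reached 0.15 in MSC.

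**Figure D2:**
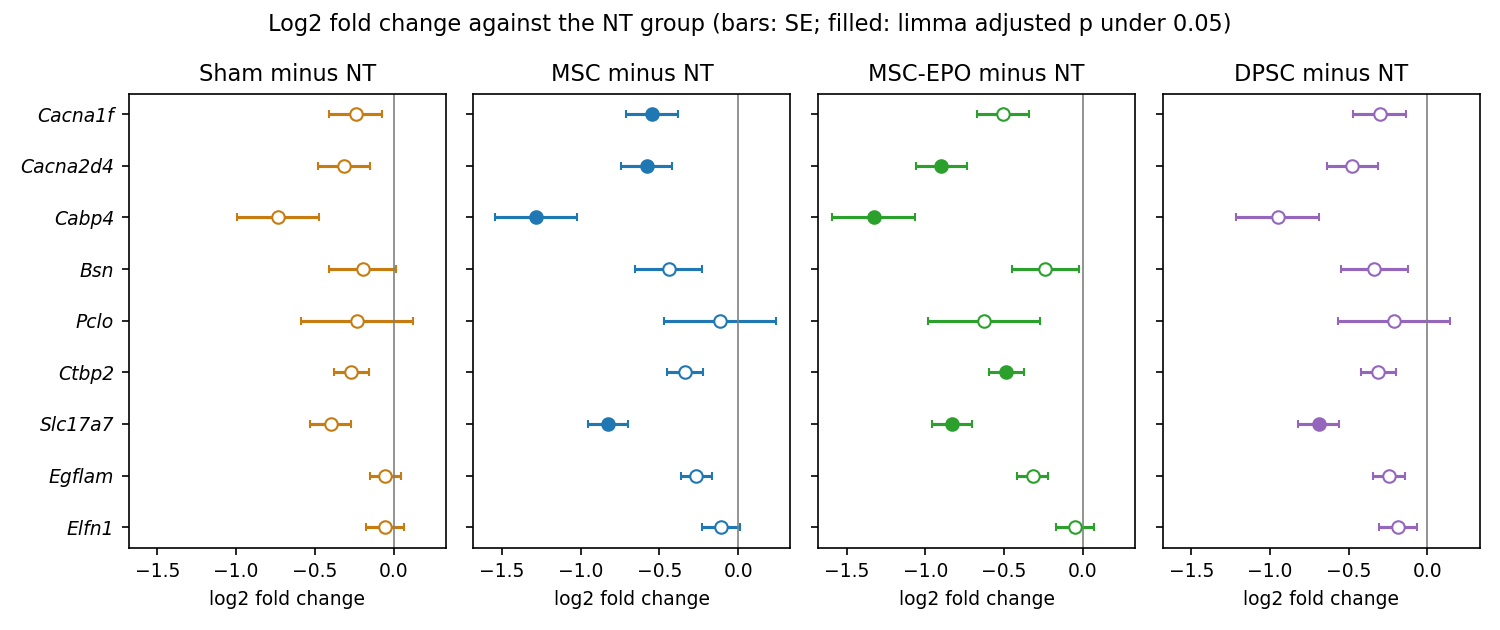
Log2 fold change of each gene against the NT group (horizontal axis, with SE bars, n = 3 libraries per group) in the Sham, MSC, MSC-EPO and DPSC groups. All 36 points lie below 0, the filled points (limma adjusted p under 0.05) number 0, 4, 4 and 1, and *Cabp4* lies farthest from 0 in every panel.

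These counts can be set beside all tested genes, although the 9 genes were chosen with earlier results of these data known. The share of tested genes called lower than NT was 0.331% in Sham, 6.37% in MSC, 5.81% in MSC-EPO and 1.41% in DPSC, next to 0, 4, 4 and 1 of the 9 members. At an unadjusted limma p under 0.05, 3, 6, 6 and 5 members were lower, as were 6.06%, 12.9%, 13.4% and 7.9% of all tested genes. In the Sham group the 3 values of *Slc17a7*, *Cabp4*, *Cacna2d4* and *Ctbp2* were all below the 3 NT values, which held for 15.3% of tested genes. The median log2 fold change of the 9 genes was -0.24 in Sham, -0.44 in MSC, -0.51 in MSC-EPO and -0.31 in DPSC, and that of all tested genes was 0.00 in each. In MSC, 36.7% of all calls against NT were lower, and quantile normalization turned this to 55.5%.

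Against the Sham group, none of the 9 genes was called by limma, and few genes of any kind were in this fit. The share of tested genes called lower than Sham was 0% in MSC, 0.0259% in MSC-EPO and 0.0195% in DPSC. The study itself reported many changed genes against Sham in MSC and in MSC-EPO, from DESeq2 with a 2-fold cutoff. The number called here also depended on the libraries. Without MSC replicate 3, 29 tested genes were called lower than Sham and 669 higher in MSC, with 0 members among them. At an unadjusted p under 0.05, 1 member was lower in MSC, 4 in MSC-EPO and 1 in DPSC, next to 3.82%, 5.12% and 1.39% of all tested genes. *Slc17a7* had a log2 fold change of -0.43 in MSC (95% interval -0.71 to -0.15, limma adjusted p 0.162) and -0.43 in MSC-EPO (-0.71 to -0.15, adjusted p 0.375). *Cacna2d4* had -0.58 in MSC-EPO (-0.94 to -0.23, adjusted p 0.340), and *Cabp4* had -0.55 in MSC (-1.12 to 0.02, adjusted p 0.392) and -0.60 in MSC-EPO (-1.16 to -0.03, adjusted p 0.584). The intervals are not adjusted for the number of genes.

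In the mean, 8 of the 9 genes were lower than Sham in each group with cells. The exceptions were *Pclo* in MSC (0.11) and DPSC (0.02) and *Elfn1* in MSC-EPO (0.0044). The sign of 10 differences from Sham depended on the analysis, these exceptions among them. The values furthest above 0 among those below 0 in the mean were 0.12 for *Pclo* in MSC-EPO, 0.09 for *Cabp4* and 0.08 for *Cacna1f* in DPSC, and 0.06 for *Bsn* and 0.06 for *Elfn1* in MSC. All 3 libraries lay below the Sham libraries for 3 genes in MSC (*Slc17a7*, *Cabp4* and *Cacna1f*), 3 in MSC-EPO (*Slc17a7*, *Cacna2d4* and *Egflam*) and 0 in DPSC, next to 11.3%, 6.81% and 5.07% of tested genes. With library weights, 0 members were called in MSC, 5 in MSC-EPO (*Cacna1f*, *Cacna2d4*, *Cabp4*, *Slc17a7* and *Egflam*) and 2 in DPSC (*Slc17a7* and *Egflam*), all lower than Sham. The same weights called 0%, 13.8% and 3.2% of all tested genes lower.

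Between the groups with cells, no member was called by limma, and the share of all tested genes called lower was 0% for MSC-EPO against MSC, 0% for DPSC against MSC and 0% for DPSC against MSC-EPO. At an unadjusted p under 0.05, 0, 0 and 1 members differed in either direction, next to 3.79%, 7.02% and 2.48% of all tested genes. *Slc17a7* differed between MSC-EPO and MSC by -0.0056 on the log2 scale (95% interval -0.28 to 0.27), *Cabp4* by -0.05 (-0.61 to 0.52) and *Cacna2d4* by -0.32 (-0.67 to 0.04). Each interval included 0. The member with the unadjusted difference was *Cacna2d4*, higher in DPSC than in MSC-EPO by 0.42 (0.07 to 0.78, adjusted p 0.996).

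In group means, *Cacna2d4*, *Cabp4*, *Ctbp2*, *Slc17a7* and *Egflam* shared the order NT, Sham, DPSC, MSC, MSC-EPO from high to low. Of the 4 neighbouring pairs in that order, only NT and Sham had no overlapping values, for *Cacna2d4*, *Cabp4*, *Ctbp2* and *Slc17a7*, and for *Egflam* each pair overlapped. For *Cacna1f*, *Bsn*, *Pclo* and *Elfn1* each neighbouring pair overlapped in their own order.

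The differences of the synapse genes stood beside larger ones of rod genes. A list of rod photoreceptor genes, which holds genes of the phototransduction cascade and other rod genes and of which 19 were tested, had 4 genes called lower than NT in Sham, 18 in MSC, 18 in MSC-EPO and 16 in DPSC. Its median log2 fold changes were -0.80, -1.22, -1.49 and -0.96. Within it, *Gnat1* had a log2 fold change of -2.31 in MSC (limma adjusted p 0.00407) and -2.53 in MSC-EPO (adjusted p 0.00268). Of 12 tested cone genes, 0, 3, 3 and 2 were called lower, with medians of -0.24, -0.27, -0.41 and -0.36, and 1, *Gnb3*, was called higher in each group.

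The other genes of the photoreceptor terminal were read from 3 lists. A list of terminal channels, pumps and scaffolds (18 tested) had 0 genes called lower than NT in Sham, 9 in MSC, 10 in MSC-EPO and 3 in DPSC, with medians of -0.34, -0.65, -0.77 and -0.55. Among them, *Unc119*, a trafficking protein of photoreceptors, was lower in MSC (-1.16), as was *Mpp4*, a scaffold protein of the photoreceptor terminal (-1.08). *Kcnv2*, a modifier subunit of voltage-gated potassium channels, was called in MSC-EPO (-1.25), and *Ano2*, a calcium-activated chloride channel of the terminal, in DPSC (-0.64). The plot of list medians shows these channel genes between the 9 ribbon synapse genes and the rod list in each group.

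**Figure D3:**
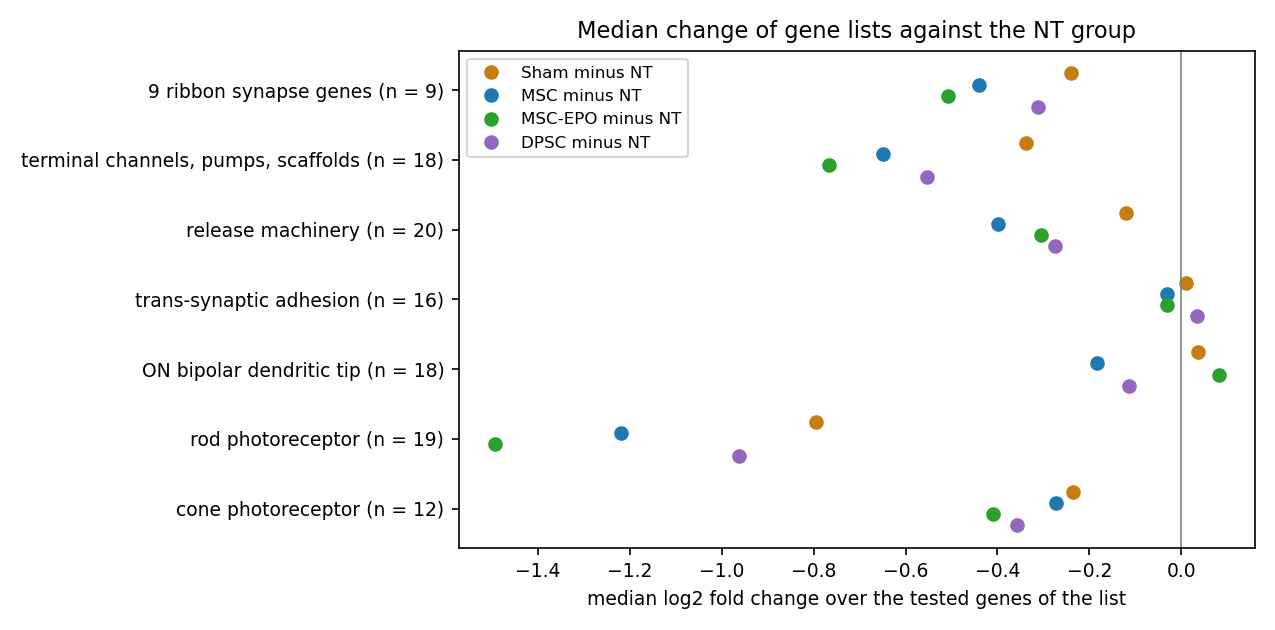
Median log2 fold change against NT (horizontal axis) over the tested genes of 7 lists (vertical axis, with the number of tested genes), with a point for each of the 4 groups given NaIO3. The rod list lies farthest below 0 in every group, from -0.80 to -1.49, the 9 ribbon synapse genes lie at -0.24 to -0.51, the trans-synaptic list lies between -0.03 and 0.03, and the ON bipolar list ranges from -0.18 to 0.08.

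A list of presynaptic release machinery (20 of 22 genes tested) had 0, 5, 6 and 1 genes called lower, with medians of -0.12, -0.40, -0.30 and -0.28. *Unc13b*, a vesicle priming factor, was called in MSC (-0.80), *Rims2*, a scaffold of the active zone, also in MSC (-0.63), and *Stx3*, the syntaxin of retinal ribbon synapses, in MSC-EPO (-0.86). No gene of this list or of the channel list was called higher than NT.

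Genes of the cleft and of the bipolar cell side moved in both directions. Of 16 tested trans-synaptic adhesion genes, 2 were called lower in MSC and 3 in MSC-EPO, with medians between -0.03 and 0.03 over the 4 groups. *Dag1*, which encodes the dystroglycan bound by pikachurin, was higher in MSC by 0.60 (SE 0.17, limma adjusted p 0.0326), while *Lrit1*, a photoreceptor leucine-rich repeat protein, was lower there (-0.60). Of 18 tested genes of the ON bipolar dendritic tip, *Gnb3* was called higher in all 4 groups, by 1.07 in Sham, 1.26 in MSC, 1.49 in MSC-EPO and 1.11 in DPSC, and 0, 1, 3 and 1 genes were called lower. These were *Gnb5* in MSC, in MSC-EPO (-1.18) and in DPSC (-0.80), joined in MSC-EPO by *Lrit3* and *Rgs9bp*. *Gnb3* is also a cone transducin subunit and *Gnb5* is also used by rods, so the calls in this list do not report bipolar cells alone. *Lrit3* also stood in the trans-synaptic list. It was the lowest of 15 in MSC-EPO replicate 3, at 7.32 next to a mean of 8.58 in the other 2 libraries of that group.

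The 9 genes were also expressed relative to the mean rlog value of the rod list in the same library. *Cabp4* stayed close to the rod list, with a difference from NT of 0.0086 in Sham, -0.0026 in MSC, 0.15 in MSC-EPO and 0.05 in DPSC. *Slc17a7* was higher relative to rod genes by 0.34, 0.45, 0.65 and 0.31, and *Elfn1*, at the other end, by 0.69, 1.17, 1.43 and 0.82. The libraries lay above all NT libraries on this scale for 8, 7, 6 and 6 of the 9 genes, but this held for 94.8%, 97.8%, 94.6% and 95.7% of all tested genes, so it is no property of the synapse genes. The median relative difference was 0.50, 0.84, 0.97 and 0.69 for the 9 genes and 0.75, 1.28, 1.48 and 1.01 for all tested genes. Exact two-sided permutation tests of 63 such differences, Sham comparisons included, could not go below p = 0.1 with 3 libraries against 3, and the smallest adjusted p was 0.18.

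**Figure D4:**
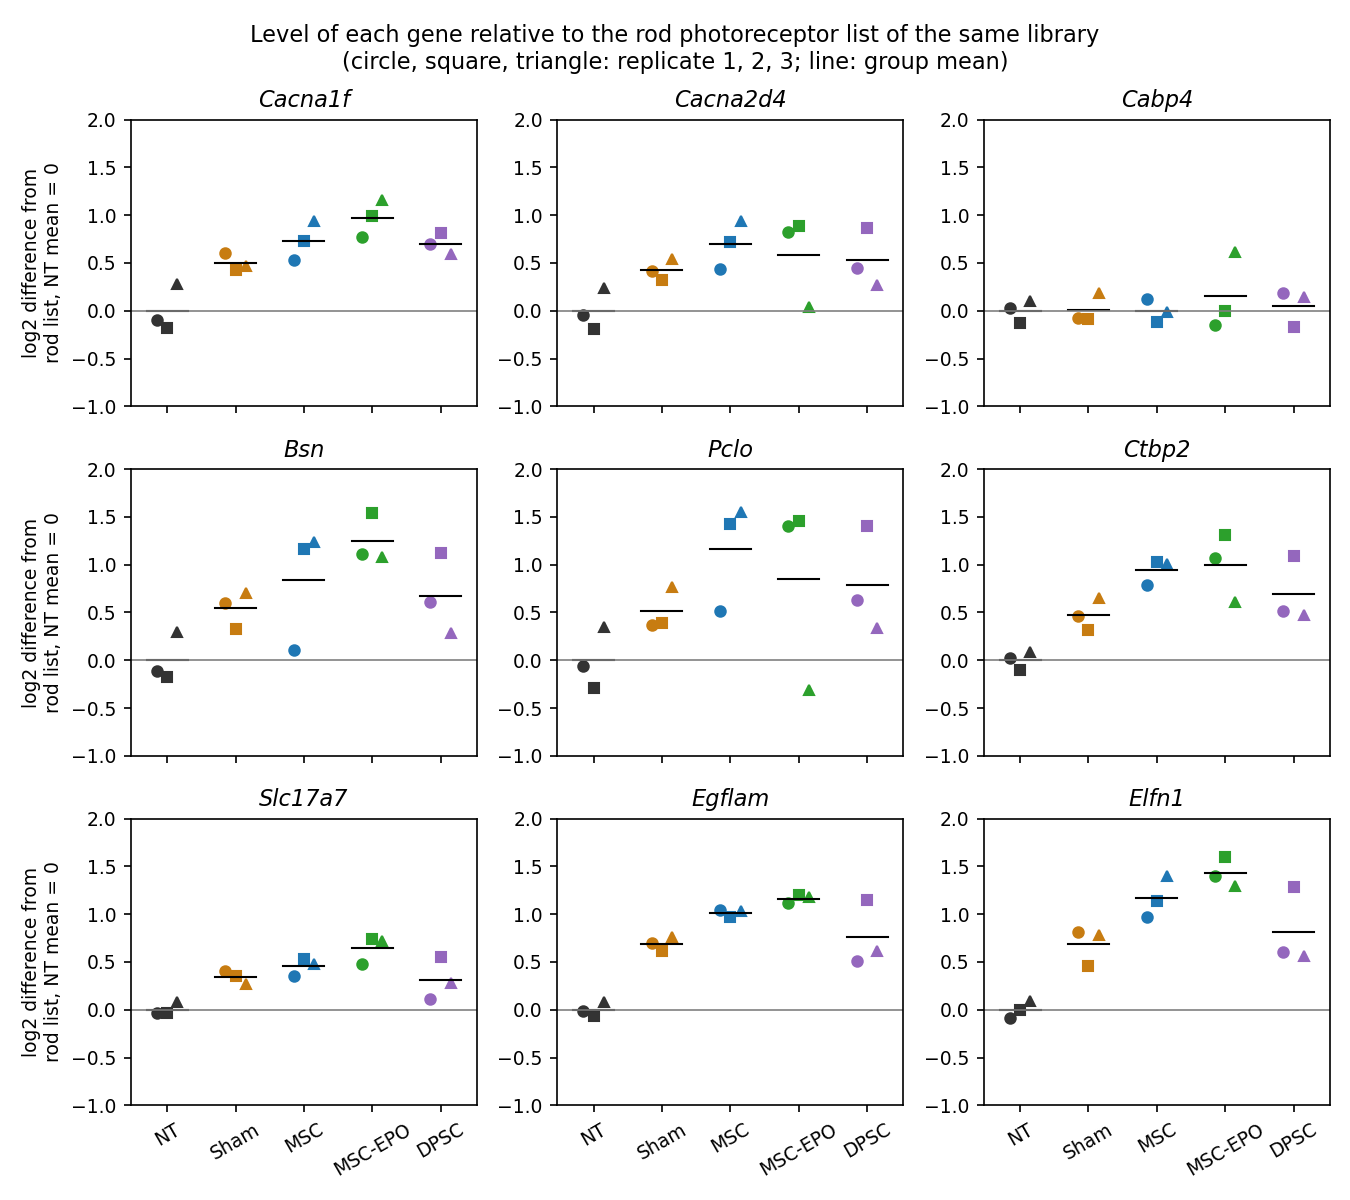
Rlog value of each gene minus the mean of the rod list in the same library (vertical axis, log2, with the NT mean set to 0) for the 15 libraries by group. *Cabp4* stays near 0 in every group except for MSC-EPO replicate 3, and the other 8 genes have means above 0 in all 4 groups given NaIO3.

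Markers of other cells differed from NT in some lists and groups and not in others. Of 15 tested macrophage and microglia genes, 0 were called higher than NT in Sham, 14 in MSC, 12 in MSC-EPO and 2 in DPSC, and the mean rlog value of the list ranged from 7.02 to 7.40 in NT, 8.10 to 8.74 in Sham, 9.04 to 10.74 in MSC, 8.74 to 9.58 in MSC-EPO and 8.13 to 9.33 in DPSC. Of 12 tested T and NK cell genes, 10 were called higher in MSC and 0 in the other groups. Of 10 tested Müller glia genes, 0, 5, 4 and 1 were called higher and 1 was called lower in MSC. The 10 tested genes of the retinal pigment epithelium had medians of -0.05, -0.88, -0.67 and -0.05, with 3 called lower in MSC and 1 called higher in MSC-EPO. All 12 retinal ganglion cell genes were lower in the mean in MSC (median -0.30), where 2 were called. Of 15 tested amacrine and horizontal cell genes, 0 were called in any comparison with NT. In the mean, 14, 13, 12 and 12 of them were lower than NT, with medians of -0.10, -0.32, -0.24 and -0.26. Of 12 tested bipolar cell genes, 0, 1, 1 and 0 were called lower, with medians of 0.04, -0.14, 0.08 and -0.11. The part of these cells in the levels of the synapse genes was not tested.

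Replicate 3 of the MSC-EPO group split the 9 genes. Compared with the mean of the other 2 libraries of its group, it was lower by 1.56 on the log2 scale for *Pclo*, by 0.64 for *Cacna2d4* and by 0.40 for *Ctbp2*, which were each the lowest of 15 there. It was higher by 0.87 for *Cabp4*, 0.46 for *Cacna1f*, 0.29 for *Slc17a7* and 0.20 for *Egflam*, and within 0.08 for *Bsn* and *Elfn1*. The group mean of MSC-EPO therefore combines libraries that differ in opposite directions for these genes. Among 54 other genes of the 3 synaptic lists, 24 were lowest of 15 in the same library, among them *Stx3* and *Kcnv2*, whose MSC-EPO differences from NT were called. A difference below -1 was found in 1 of the 9 members and in 10% of tested genes.

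**Figure D5:**
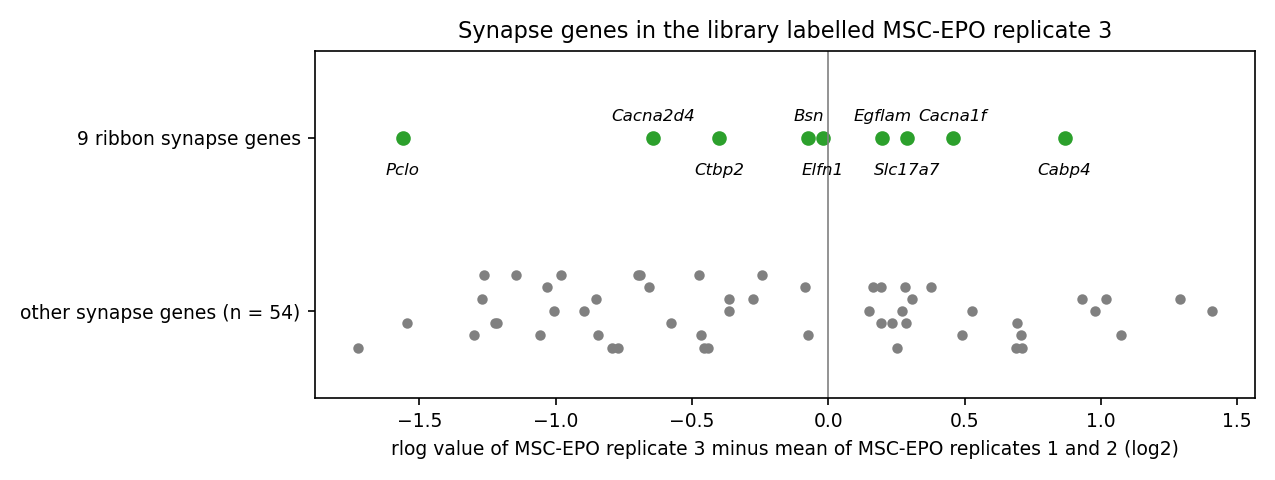
Rlog value of MSC-EPO replicate 3 minus the mean of MSC-EPO replicates 1 and 2 (horizontal axis, log2) for the 9 genes, each named, and for 54 other synapse genes (grey, spread vertically for clarity). *Pclo* lies at -1.56 and *Cabp4* at 0.87, and the other synapse genes also lie on both sides of 0.

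With both MSC replicate 1 and MSC-EPO replicate 3 left out of the fit, an analysis chosen after the values were seen, 6 members were called lower than NT in MSC, 6 in MSC-EPO and 4 in DPSC. In that fit 9.94%, 11.8% and 5.99% of tested genes were called lower. *Egflam* was then called in MSC (-0.34, limma adjusted p 0.0218) and MSC-EPO (-0.39, adjusted p 0.0105), *Ctbp2* in MSC (-0.32, adjusted p 0.0271) and DPSC (-0.31, adjusted p 0.0303), and *Cacna2d4* and *Cabp4* in DPSC (adjusted p 0.0169 and 0.0159). *Bsn*, *Pclo* and *Elfn1* were not called in that fit either.

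The likeness of other genes to these 9 was measured over the 15 libraries as the root mean square difference between centred rlog profiles. The profile averaged over the 9 genes was highest in NT replicate 3 (0.48) and lowest in MSC-EPO replicate 3 (-0.30). Among the nearest tested genes were *Cdc23* (0.06), *Stk36* (0.07), *Agpat5* (0.07) and *Pptc7* (0.07), next to a median of 0.29 over the tested genes. For single members, the nearest genes were *Stx3* for *Cacna2d4* (0.09), *Ncam2*, a neural adhesion molecule, for *Pclo* (0.12), *Celsr3* for *Bsn* (0.11), *Slc31a2* for *Cabp4* (0.11), *Lemd3* for *Ctbp2* (0.05), *Tmem136* for *Slc17a7* (0.07), *Ubap1l* for *Egflam* (0.07), *Ppard* for *Elfn1* (0.07) and a gene listed without a symbol, ENSRNOG00000057813, for *Cacna1f* (0.08). Among the members, *Egflam* and *Elfn1* differed least (0.16) and *Cabp4* and *Pclo* most (0.74). The measure also depends on how far each profile moves. The root mean square of the centred profile itself was 0.16 for *Egflam* and 0.13 for *Elfn1*, next to 0.56 for *Cabp4* and 0.45 for *Pclo*. A small difference between 2 flat profiles is therefore no sign of a shared pattern.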

How the data were processed

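The 15 retinal samples of 5 groups were read as deposited. Per the study's methods and the submitters' processing notes, the authors ran Salmon 1.1.0 (Rnor_6.0), tximport for gene sums, and the rlog transformation of DESeq2 (version 3.2 in the notes). The deposited values are therefore log2 values. The deposited files hold no counts, so no depth is given for single libraries and no detection limit was set. Another 15 columns of per-sample values, a table of the whole series with 0 differing values, were not used.

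Group means were fitted with limma 3.58.1 in R 4.3.3 (variance trend, Benjamini-Hochberg adjustment within each of 10 comparisons). The tests had been planned for counts or log values. The 9 members and the lists were chosen with earlier results of these data known. Named genes are the members, up to 3 called genes with the largest change per list and comparison, and the nearest profiles. Same-numbered libraries of MSC and MSC-EPO deviated together (correlations 0.26, 0.16 and 0.28), although the labels tie them to nothing shared. Libraries with different numbers were not compared, so a pairing by replicate number was not shown. Alternatives were other low-value filters, the 2 groups alone, 12 libraries without DPSC, a replicate block, median centring, quantile normalization, array weights, a 2-fold rule and each library left out. The script was tested on simulated data. Symbols were matched exactly, and *Snap25*, *Sv2b*, *Rgs11*, *Prph2* and *Trbc1* had no match. Some genes that the naming rule selects are not reported here.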

Additional observations from a re-analysis of the deposited data

How the results depend on the processing

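The counts of called members changed as follows. In Sham against NT (0 members), fitting the 2 groups alone gave 1 (*Cabp4*), beside 546 of 15382 tested genes called lower. Library weights (limma's array weights) gave 4 there, with 10.6% of all tested genes called lower. In MSC against NT (4), the 2-fold rule gave 1, and leaving out each library in turn gave 2 to 4. In MSC-EPO against NT (4), the 2 groups alone gave 2, the 2-fold rule 1 and the replicate block 5. Library weights gave 6 there, beside 29.5% of all tested genes called lower. Leaving out each library gave 3 to 6. The 6 came without MSC-EPO replicate 3, beside 1418 of 15425 tested genes called lower. In DPSC against NT (1), the replicate block gave 2 (adding *Cabp4*), library weights gave 6 (19.8% of all genes lower), the 2-fold rule gave 0, leaving out each library gave 0 to 1, and leaving out both MSC replicate 1 and MSC-EPO replicate 3, chosen after seeing the data, gave 4. Library weights, whose estimation stopped before its tolerance was met, also gave 5 in MSC-EPO against Sham and 2 in DPSC against Sham, all lower, beside 13.8% and 3.2% of all genes. In DPSC against MSC-EPO they gave 4 (*Cacna1f*, *Cacna2d4* and *Cabp4* higher, *Elfn1* lower), beside 16.5% of all genes in each direction. Each unweighted fit gave 0. The cause of these changes was not tested. Over 1323 alternative values of single members, 0 called values turned sign, 23 were no longer called, 37 became called, and 74 values that were called in neither fit changed sign. *Slc17a7* in DPSC against NT was called in 9 of 14 alternatives, *Cacna1f* in MSC in 7 of 15, *Cacna2d4* in MSC in 10 of 15 and in MSC-EPO in 14 of 15, and *Ctbp2* in MSC-EPO in 11 of 15. Of 441 alternative values relative to the rod list, 3 moved by more than the spread between libraries. Quantile normalization shifted the median of all genes by -0.10 in MSC against NT. Over all 30 pairs of same-numbered libraries, the correlations of their deviations had both signs, from -0.44 to 0.65, and 12 were over 0.1. Between MSC and MSC-EPO, the block left 0 members called. Apart from *Cabp4* in DPSC and *Cacna1f* in MSC-EPO (adjusted p 0.0358 and 0.0356), both against NT, the block changed no member's call. The 3 libraries per group and the lack of counts limit what could be detected, and the shrinkage of the values may do so too.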
